A study of Mus musculus with 16 samples.

Results

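The comparison described here set organ of Corti cultures of mice heterozygous for a Rest allele without exon 4 against wild-type cultures, with the deacetylase inhibitor FK228 given to both. It used 8 of the 16 RNA-seq libraries of the study, chosen by their labels alone, with 4 libraries of Rest(+/deltaExon4) and 4 of wild type. The organ of Corti is the sensory epithelium of the cochlea. It was taken from C57BL/6 mice on postnatal day 0 and cultured for 3.5 days, with 2 nM FK228 present from day 1 to day 1.5 and from day 3 to day 3.5. For each library, the RNA of 6 to 8 cultures was combined. The other 8 libraries, cultures of both genotypes kept in 0.1% DMSO as solvent, gave the genotype difference without the inhibitor. They shared no library with the comparison under FK228. Heterozygous cells still carry 1 intact Rest allele, and whole organs were cultured, so each value is a mixture of hair cells, supporting cells, neurons and other cells. In such bulk samples fewer cells of a type and less RNA per cell cannot be told apart. Whether different litters gave the pools is not stated in the labels, and p-values cover only the pool-to-pool spread.

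REST is a zinc finger repressor that binds RE1 elements at neuronal genes and keeps them silent outside neurons. It recruits corepressor complexes, RCOR1 with the demethylase KDM1A and SIN3A, which carry the class I histone deacetylases HDAC1 and HDAC2. In hair cells, inclusion of exon 4 in Rest messenger RNA gives a truncated protein without repressor function, which leaves neuronal and synaptic genes free to be expressed. FK228, also called romidepsin, inhibits class I deacetylases. The comparison therefore asks which genotype differences remain, and which appear, when these deacetylases are inhibited in both genotypes.

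Depth ran from 12361027 to 14153838 gene counts in the heterozygous FK228 libraries and from 16224586 to 17656274 in the wild-type FK228 libraries. Spike-in RNA of the ERCC set took 0.350% ± 0.0347 (SD, n = 4) of all such counts and gene counts in the former and 0.205% ± 0.0233 in the latter. For both measures the groups did not overlap (exact two-sided permutation p = 0.0286, the smallest that 4 against 4 can give, adjusted p = 0.0857 over 6 library measures). Summed Y-linked genes ran from 24.2 to 318 CPM in wild-type and from 119 to 247 CPM in heterozygous FK228 libraries. Xist had no count in library 4 of either group. The mix of sexes therefore varied between pools. When spike-ins instead of TMM set the scale, the median log2 fold change between genotypes went from -0.0038 to -0.74, and changes below are relative to the bulk of transcripts unless stated otherwise. Reads of a Cre-ERT2 transgene sequence, a tamoxifen-inducible recombinase, were counted in each of the 8 heterozygous libraries (6 to 11 reads with FK228, 5 to 16 in solvent) and in none of the 8 wild-type libraries. A count of 0 allows up to 3 reads per library, for counting error only. The Rest allele and this transgene, which the labels do not mention, cannot be told apart in these data. Of 46 listed hair cell markers 45 were measured, as were all 30 listed supporting cell markers, so the defining genes of the labelled tissue were present.

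Rest transcripts did not pass the test. In CPM, wild-type FK228 libraries held 74.6, 79.9, 70.9 and 69.9 and heterozygous ones 87.3, 81.1, 79.7 and 75.8, a log2 change of 0.13 ± 0.08 (adjusted p = 0.525; -0.60 with spike-in scaling, adjusted p = 0.000627). Counts over the whole gene do not test for the missing exon. None of 22 genes of the REST corepressors and class I deacetylases was called, with a median of -0.04. Sin3a, the scaffold of the SIN3 deacetylase complex, came closest at -0.43 ± 0.11 (adjusted p = 0.0548), and Hdac1 was at -0.26 ± 0.10 (adjusted p = 0.244).

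Under FK228 the heterozygous cultures differed from wild type at 366 of 17125 genes tested (2.14%), by edgeR's quasi-likelihood test at a Benjamini-Hochberg adjusted p under 0.05. Of these 207 were higher (1.21%) and 159 lower (0.928%), and 118 and 52 of them differed by at least 2-fold. Of all genes tested 8713 had a log2 change below 0. Higher genes made up 56.6% of the calls, against 0.747% of 12857 calls with spike-in scaling. Under that scaling 138 of the 207 stayed above 0, 85 of them called, and all 159 lower genes were still called. It moved the median log2 change to -0.74, so a gene called lower could hardly lose its call. The 159 are therefore no check of the lower genes. The groups did not overlap for 1513 genes (8.84%), among them 311 of the 366. For the 15 higher and 15 lower genes named for the smallest adjusted p, this was a condition of choice and is no further support. These include Cplx2, Cplx1, Chgb, Otof, Tmem163, Hipk1 and Mal2. The first principal component of the 8 libraries held 28.1% of their variance and separated the genotypes. Without wild-type library 7, 188 genes were called, 184 of them among the 366. Without wild-type library 4, 1 or heterozygous library 4, 221, 237 and 235 genes were called.

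Most differences seen in solvent kept their direction under FK228. In solvent 206 genes were higher (1.2% of genes tested) and 141 lower (0.823%), together 2.03%. Of the 206, 192 were above 0 and 105 were called higher under FK228, and the median log2 change went from 1.19 to 0.87. Of the 141, 131 were below 0 and 55 were called lower, with a median that went from -1.03 to -0.56. Genes chosen for their FK228 call were smaller in solvent in the same way, with medians that went from 1.22 to 0.77 for the 207 higher and from -0.68 to -0.40 for the 159 lower genes. The 160 genes called in both treatments had a median absolute log2 change of 1.44 in each. No gene was called in opposite directions.

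The 160 genes called in both treatments with the same sign made up 43.7% of the FK228 calls and 46.1% of the solvent calls. A further 205 genes (102 higher, 103 lower) were called with FK228 only without being called by the interaction, the test of the difference between both genotype effects, so they are not shown to differ between treatments. Of the 102, 82 were above 0 in solvent and 43 of these had an unadjusted p under 0.05, and of the 103, 92 were below 0 and 50 passed that mark. Under the same conditions 186 genes were called in solvent only. The interaction itself called 4 genes (0.0234%), with 995 genes (5.81%) at an unadjusted p under 0.05. DESeq2 called 16. Leaving out wild-type FK228 library 1, 2 or 4, heterozygous FK228 library 2, wild-type solvent library 1, or heterozygous solvent library 1 or 4 left 2 calls.

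**Figure D1:**
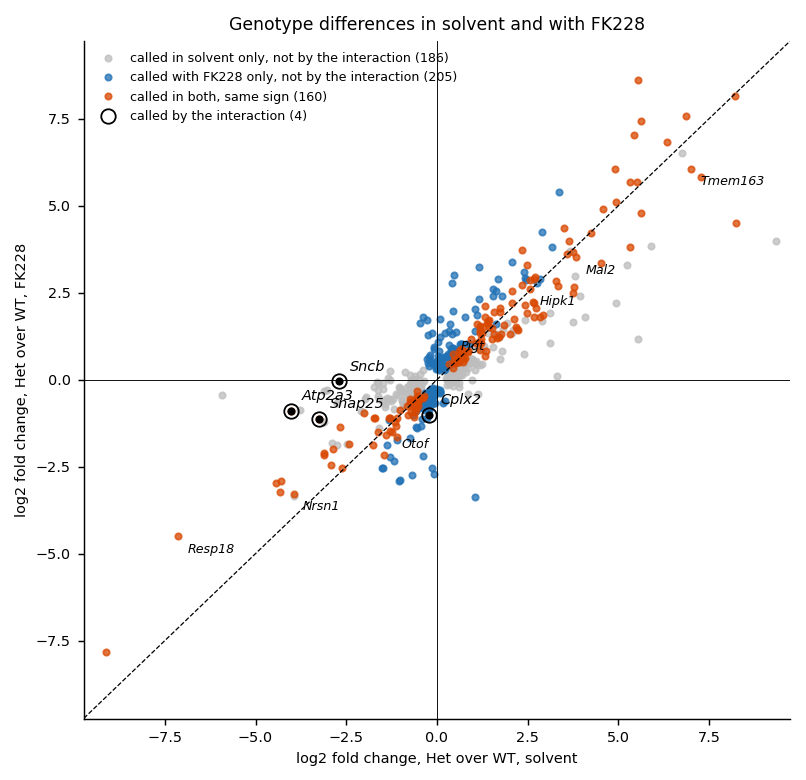
Each point is a gene called in either treatment, with the log2 fold change of heterozygous over wild type in solvent on the x axis and with FK228 on the y axis. The dashed line marks equal size. Of these genes 160 were called in both (orange), and the 4 ringed genes were called by the interaction.

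Cplx2 was the one gene called with FK228 and by the interaction but not in solvent. It encodes complexin 2, a protein that binds SNARE complexes and times vesicle fusion. Cplx2 was at 95.2, 95.0, 86.3 and 102 CPM (counts scaled to a common library size) in wild-type FK228 libraries 1, 2, 4 and 7 and at 45.2, 50.2, 45.6 and 45.6 CPM in heterozygous FK228 libraries 2 to 5. Every heterozygous library was below every wild-type library, which its place among the 15 lower genes required. The log2 fold change was -1.02 ± 0.08 (SE, adjusted p = 9.24e-08), against -0.22 ± 0.07 in solvent (adjusted p = 0.179), where wild type held 282, 288, 298 and 239.9 CPM and heterozygous 239, 240.3, 228 and 246 CPM. The difference between both effects was -0.80 ± 0.10 (adjusted p = 0.00328).

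Sncb, which encodes beta-synuclein, a presynaptic protein, was the one gene called in solvent and by the interaction but not with FK228. With FK228 it was at 4.71, 3.63, 4.17 and 5.32 CPM in wild type and 4.23, 3.38, 3.51 and 6.14 CPM in heterozygous libraries. The groups overlapped, at a log2 change of -0.05 ± 0.23 (adjusted p = 0.961; -0.77 with spike-in scaling, adjusted p = 0.00908). In solvent it was at 2.17, 1.82, 1.46 and 1.72 against 0.14, 0.393, 0.269 and 0.274 CPM, a log2 change of -2.70 ± 0.33 (adjusted p = 8.52e-05). The interaction was 2.65 ± 0.41 (adjusted p = 0.0244). That call was lost without any one of 8 of the 16 libraries, which were heterozygous solvent 1, 4 or 5, wild-type solvent 1, heterozygous FK228 2, and wild-type FK228 1, 2 or 4 (adjusted p up to 0.0786).

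Snap25 and Atp2a3 remained lower under FK228 by a smaller margin than in solvent. Snap25 encodes a SNARE protein of the presynaptic membrane, and Atp2a3 a pump that moves calcium into the endoplasmic reticulum. Snap25 was at 49.5, 40.9, 42.3 and 61.4 CPM in wild type and 21.8, 19.9, 22.9 and 23.8 CPM in heterozygous libraries with FK228, with no overlap. The log2 change was -1.14 ± 0.22 with FK228 (adjusted p = 0.00837) and -3.25 ± 0.27 in solvent (adjusted p = 6.68e-07), where the means were 18.5 and 1.93 CPM. Its interaction of 2.12 ± 0.35 (adjusted p = 0.0429) was lost without any one of 12 of the 16 libraries, which included all 4 heterozygous FK228 libraries, wild-type FK228 libraries 1, 2 and 4, heterozygous solvent libraries 1, 4 and 5 and wild-type solvent libraries 1 and 2 (adjusted p up to 0.124). Limma voom lost the interaction of Snap25 (adjusted p = 0.199) and of Sncb (adjusted p = 0.194).

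Atp2a3 was at 10.96, 14.1, 13.8 and 12.5 CPM in wild type and 6.35, 7.38, 6.01 and 7.79 CPM in heterozygous libraries with FK228. The groups did not overlap, and the log2 change was -0.90 ± 0.22 (adjusted p = 0.0344). In solvent it was -4.03 ± 0.29 (adjusted p = 5.89e-08), with 12.7, 8.14, 7.85 and 10.3 CPM in wild type and 0.629, 0.917, 0.673 and 0.137 CPM in heterozygous libraries. The interaction of 3.13 ± 0.37 (adjusted p = 0.0014) was called whichever library was left out. The FK228 difference itself was lost without any one of 7 of the 8 FK228 libraries, all but heterozygous library 5 (adjusted p up to 0.115).

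**Figure D2:**
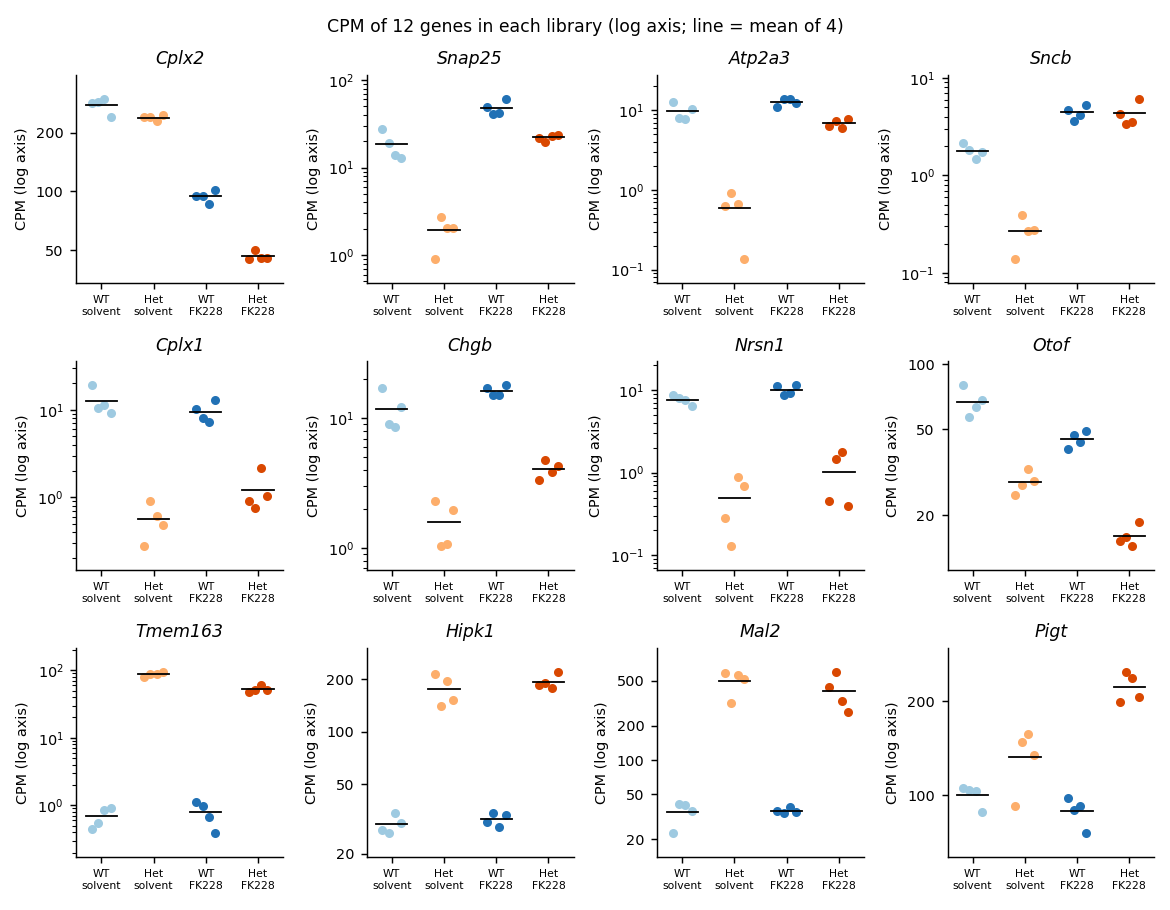
CPM in each library, on log axes that differ between panels, for 12 genes in wild-type (WT) and heterozygous (Het) cultures in solvent and with FK228, with a line at the mean of 4 libraries. Cplx2 separated the genotypes with FK228, Sncb in solvent, and the other 10 genes were called with FK228.

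Among 41 measured REST targets, a list drawn up with earlier results of these data known, 7 fell under FK228 and none rose (lower genes made up 0.928% of all genes tested), and 34 did not pass the test. The median log2 change of the 41 was -0.28, against -0.0038 over all genes, and 36 were below 0. In solvent 16 fell and the median was -0.84. The 16 lowered in solvent were all below 0 under FK228, 6 of them called and 14 at a smaller size, and their median went from -1.69 to -0.77. Only for Snap25 did the interaction test call the difference in size. In wild type the mean CPM of 13 of these 16 genes was higher with FK228 than in solvent, and in heterozygous cultures that of 15.

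Cplx1 encodes complexin 1, the second complexin of nerve terminals. It was at 10.2, 7.98, 7.19 and 12.8 CPM in wild type and 0.907, 0.758, 2.16 and 1.02 CPM in heterozygous FK228 libraries, a log2 change of -2.96 ± 0.34 (adjusted p = 3.91e-05). Chgb, chromogranin B of dense-core vesicles, was at 17.0, 15.2, 15.2 and 17.9 CPM and 3.33, 4.76, 3.85 and 4.33 CPM, a change of -2.01 ± 0.23 (adjusted p = 5.25e-05). For both genes every heterozygous library lay below every wild-type library, which their place among the 15 lower genes required. Scg3, secretogranin III, fell from 10.6 ± 2.44 to 4.14 ± 1.02 CPM (mean ± SD, n = 4), a change of -1.36 ± 0.26 (adjusted p = 0.00837), and Stmn3, a neuronal microtubule regulator, from 8.19 ± 2.27 to 2.69 ± 0.758 CPM, a change of -1.60 ± 0.27 (adjusted p = 0.00287). Nefm, the medium neurofilament subunit, changed by -1.20 ± 0.24 (adjusted p = 0.0102), with 263, 176, 118 and 264 CPM in wild type and 68.1, 89.9, 119 and 78.7 CPM in heterozygous libraries. Its groups overlapped by 1 library on each side.

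Atp2b2, the plasma membrane calcium pump of hair bundles, was called with FK228 and not in solvent. It was at 32.3, 38.6, 34.2 and 36.7 CPM in wild type and 19.6, 21.8, 22.2 and 22.4 CPM in heterozygous FK228 libraries. The log2 change was -0.72 ± 0.11 (adjusted p = 0.00132), against -0.35 ± 0.11 in solvent (adjusted p = 0.138), and the interaction was not called (adjusted p = 0.824). The 10 targets called in solvent only, which were all followed because of their solvent call, ranged under FK228 from -0.89 for Chga, chromogranin A (adjusted p = 0.08), to -0.06 for Disp2 (adjusted p = 0.97). Between them lay Chrnb2, a nicotinic receptor subunit, at -0.86 (solvent -3.77), Syp, synaptophysin, at -0.69 (solvent -1.43), Ina, a neurofilament protein, at -0.67 (solvent -2.76), and Rundc3a at -0.55 (solvent -1.29). Nefh, the heavy neurofilament subunit, was at -0.20 (solvent -1.74), Scn3b, a sodium channel subunit, at -0.27 (solvent -1.49), Tubb3, a neuronal tubulin, at -0.20 (solvent -0.84) and Mapk8ip2, a scaffold of JNK signalling, at -0.08 (solvent -1.48). For none of these 10 was the interaction called.

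**Figure D3:**
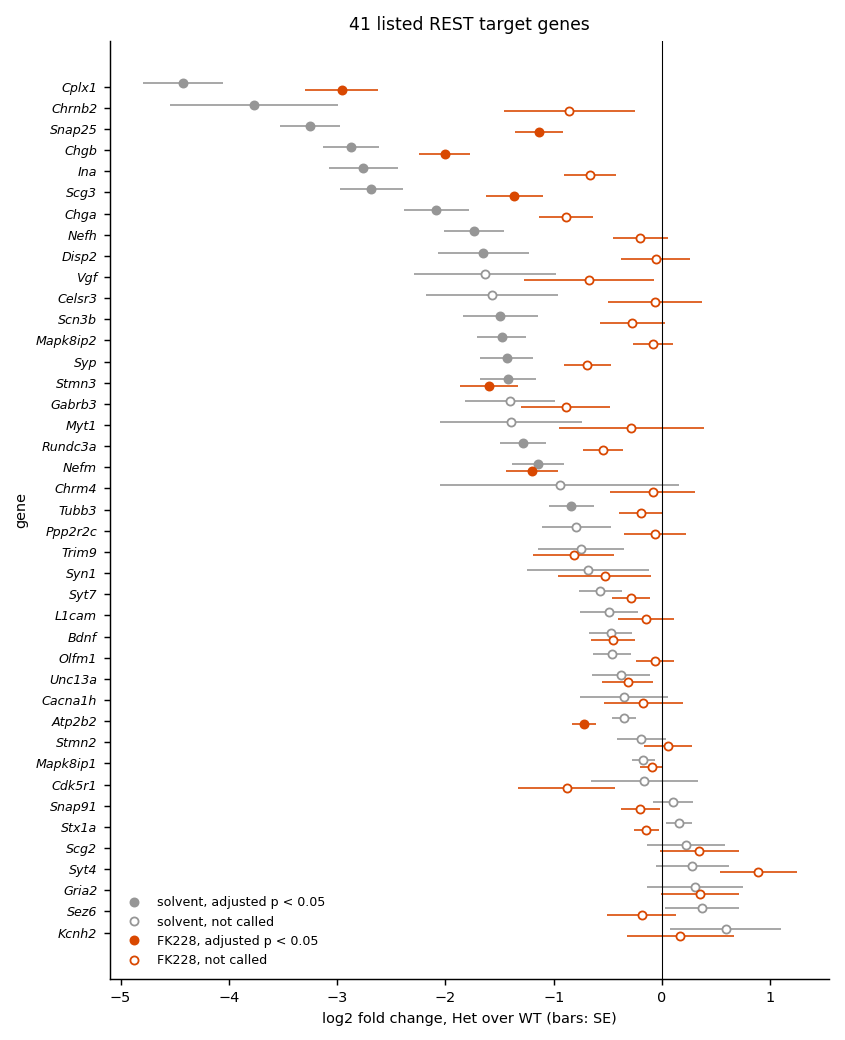
Log2 fold change of heterozygous over wild type with its SE for 41 listed REST target genes, in solvent (grey) and with FK228 (orange), ordered by the solvent value. Filled points passed the test, 16 in solvent and 7 with FK228.

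REST binds a bipartite element, and its canonical form, known as RE1, was searched on both strands of annotated transcripts (GENCODE M21, GRCm38) and of RefSeq promoters from 250 bases before to 50 bases after the gene start (GRCm38.p6), with at most 2 mismatches in the 17 fixed of its 21 letters. The sites in genes lowered in heterozygous cultures are shown because they place the known element in genes of this comparison, with matching letters in capitals and mismatched or free positions in lower case.
Golga7b: aTcAGtACCgcGGACAGcGCC
Cyp26b1: cTtAGCtCCtgGGACAGaGCC
Chrnb2: TTcAGCACCacGGACAGcGCt
Syp: TccAGCACCgtGGACAGaGCC
Lhfpl5: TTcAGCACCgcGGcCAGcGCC
The Golga7b site lies in the 5′ UTR at chr19:42256042-42256062 on the plus strand and the Cyp26b1 site in the 3′ UTR at chr6:84574045-84574065, written along the minus-strand transcript. Those of Chrnb2 (5′ UTR, chr3:89764454-89764474) and Syp (coding, chrX:7638737-7638757) are also written along their transcripts, and that of Lhfpl5 (5′ UTR, chr17:28575641-28575661) along the opposite strand. Golga7b and Cyp26b1 fell under FK228, and the other 3 were called in solvent only.

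A match was found in transcripts of 76 of 17086 genes searched (0.445%), in 2 of 159 lowered with FK228 (1.26%), in 5 of 141 lowered in solvent (3.55%), in 1 of 206 higher with FK228 (0.485%) and in 0 of 205 higher in solvent. All annotated transcripts of a gene were searched and the best matching one was kept. Its median length was 1944 bases for genes lowered with FK228 and 1354 over all genes. The total length searched per gene was not compared, so the chance to hold a match may not have been equal. Promoters held a match in 12 of 11854 genes (0.101%), in 0 of 118 lowered and 0 of 114 higher with FK228, and in 1 of 109 lowered (0.917%) and 1 of 110 higher (0.909%) in solvent. Introns and distal regions were not searched.

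Otof and 5 other genes with which hair cells release transmitter and handle calcium fell in heterozygous cultures under FK228. Of 21 genes of the ribbon synapse and its calcium machinery 6 fell and none rose, against 0.928% of all genes called lower, and the list median was -0.22. The 6 were Otof, Cabp2, Calb2, Pvalb, Atp2b2 and Atp2a3. Otof is the gene of otoferlin, which senses calcium for exocytosis in hair cells. It was at 40.5, 47.1, 43.6 and 49.2 CPM in wild type and 15.2, 15.9, 14.5 and 18.6 CPM in heterozygous FK228 libraries, with no overlap. The log2 change was -1.49 ± 0.12 (adjusted p = 2.44e-07), against -1.24 ± 0.11 in solvent (adjusted p = 2.12e-06), and the interaction was not called (-0.26 ± 0.16, adjusted p = 0.925).

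Cabp2, a calcium-binding regulator of hair cell calcium channels, was at 0.851, 2.18, 1.57 and 1.42 CPM in wild type and 0.151, 0.207, 0.338 and 0.315 CPM in heterozygous FK228 libraries, a change of -2.53 ± 0.46 (adjusted p = 0.00558) at low counts. Calb2, calretinin, was at 254, 235, 176 and 248 CPM and 108, 124, 137 and 123 CPM, a change of -0.89 ± 0.18 (adjusted p = 0.0103). Pvalb, parvalbumin, which was named after its values were seen, changed by -1.10 ± 0.22 (adjusted p = 0.0118), from 14.1 to 6.55 CPM. These 3 proteins bind calcium in hair cells, and calretinin marks spiral ganglion neurons as well. The presynaptic calcium channel subunit Cacna1d (0.25 ± 0.24), the ribbon protein gene Ctbp2 (-0.22 ± 0.12) and the vesicular glutamate transporter gene Slc17a8 (0.24 ± 0.62) were not called (lowest adjusted p = 0.49).

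Across 45 hair cell markers 5 fell (Otof, Cabp2, Calb2, Pvalb and Mreg) and none rose, against 0.928% of all genes called lower. The median was -0.27. All of the 5 but Mreg were counted among the ribbon synapse genes above as well. Mreg, which encodes a melanosome and vesicle transport protein, was at 38.9, 36.7, 29.0 and 38.2 CPM in wild type and 20.1, 25.5, 19.9 and 25.6 CPM in heterozygous FK228 libraries, a change of -0.65 ± 0.13 (adjusted p = 0.0108). The summed level of the 46 listed markers ran from 795 to 911 CPM in heterozygous FK228 libraries, against 975 to 1158 CPM in wild type. The share of hair cells in the cultures was not measured, and its part in these differences was not tested. Of 31 hair bundle and mechanotransduction genes none was called in either direction with FK228 (median -0.21). The lowest p among them was that of Lhfpl5, a subunit of the transduction channel complex, at -0.76 ± 0.20 (adjusted p = 0.0571; solvent -0.77 ± 0.20, adjusted p = 0.0473).

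Of 33 genes of the synapse and exocytosis 4 fell, Cplx2, Cplx1, Snap25 and Rab3c, and none rose (median -0.20), against 0.928% of all genes called lower. Rab3c, a vesicle GTPase, was at 12.0, 6.77, 4.59 and 12.7 CPM in wild type and 2.57, 5.38, 5.14 and 3.46 CPM in heterozygous FK228 libraries, with overlap, a change of -1.12 ± 0.28 (adjusted p = 0.0468). Its call was lost without any one library except wild-type library 4 (adjusted p up to 0.178). Of 15 granin and dense-core vesicle genes Chgb and Scg3 fell, against the same 0.928%.

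Of 22 spiral ganglion neuron markers 4 fell (Nefl, Nefm, Snap25 and Calb2) and none rose, against 0.928% of all genes called lower. The median was -0.39. Snap25 and Calb2 were counted in lists above as well. Nefl, the light neurofilament subunit, was at 223, 177, 109 and 234 CPM in wild type and 54.2, 59.1, 101 and 54.4 CPM in heterozygous FK228 libraries. The groups did not overlap, but wild-type library 4 and heterozygous library 4 lay close to each other. The change was -1.47 ± 0.26 (adjusted p = 0.00389), against -1.31 ± 0.26 in solvent. Summed over the 23 listed markers, the level was 1403 to 1579.9 CPM in heterozygous FK228 libraries, against 1594 to 2059 CPM in wild type, and its part in the neuronal differences was not tested. Rbfox3, the neuronal splicing factor known as NeuN, was at -0.47 ± 0.26 (adjusted p = 0.477), against -1.63 ± 0.26 in solvent (adjusted p = 0.00139).

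Nrsn1, which encodes the vesicle protein neurensin 1, was at 11.4, 8.76, 9.12 and 11.4 CPM in wild type and 0.454, 1.45, 1.76 and 0.393 CPM in heterozygous FK228 libraries. Its change of -3.29 ± 0.37 (adjusted p = 2.92e-05) compared with -3.94 ± 0.40 in solvent. Resp18, a protein of the regulated secretory pathway, was at 3.75, 3.87, 2.48 and 3.74 CPM and 0.0756, 0.138, 0.203 and 0.157 CPM, a change of -4.51 ± 0.42 (adjusted p = 1.4e-05). Few reads of either gene were counted in heterozygous cultures.

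Gdap1, a mitochondrial outer membrane protein mutated in Charcot-Marie-Tooth neuropathy, fell from 10.6 ± 2.55 to 1.94 ± 0.344 CPM, a change of -2.45 ± 0.28 (adjusted p = 4.53e-05). Golga7b, an adaptor of a palmitoylating enzyme, fell from 11.8 ± 3.76 to 1.25 ± 0.544 CPM, a change of -3.23 ± 0.39 (adjusted p = 7.2e-05). Actl6b, the neuronal subunit of the BAF chromatin remodelling complex, fell from 5.54 ± 1.33 to 0.72 ± 0.268 CPM, a change of -2.93 ± 0.41 (adjusted p = 0.000385). All 3 were lowered in solvent too, at -2.93, -4.34 and -4.29. For Nrsn1, Resp18, Gdap1, Golga7b and Actl6b the interaction was not called (lowest adjusted p = 0.832).

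Other genes fell by smaller margins at higher levels. Mgat5, a glycosyltransferase that branches N-glycans, was at 321, 402, 379 and 392 CPM in wild type and 189, 202, 175 and 210.4 CPM in heterozygous FK228 libraries, a change of -0.94 ± 0.08 (adjusted p = 6.52e-07). Zbtb21, a zinc finger transcription factor, fell by 0.84 on the log2 scale, Cyp26b1, which degrades retinoic acid, by 0.76, Pik3c2b, a lipid kinase, by 0.75, and Btg2, an antiproliferative p53 target, by 0.63 (highest adjusted p = 0.000289). These 5 were lowered in solvent as well. Ikbip was called with FK228 only, at 388, 369, 375 and 414 CPM in wild type and 274, 288, 283 and 298 CPM in heterozygous libraries, a change of -0.44 ± 0.06 (adjusted p = 0.000289), against -0.09 ± 0.06 in solvent, and the interaction was not called (adjusted p = 0.383).

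Tmem163, Hipk1 and Mal2 were far higher in heterozygous cultures with and without the inhibitor. Tmem163, a zinc transporter of synaptic vesicles and lysosomes, was at 1.14, 0.967, 0.664 and 0.396 CPM in wild type and 47.9, 51.0, 61.0 and 51.7 CPM in heterozygous FK228 libraries, a log2 change of 6.05 ± 0.19 (adjusted p = 1.42e-13). Hipk1, a nuclear protein kinase, was at 30.5, 34.4, 28.4 and 33.4 CPM and 187, 192, 178 and 219.7 CPM, a change of 2.61 ± 0.13 (adjusted p = 2.08e-10). Mal2, a protein of apical membrane traffic, was at 35.4, 34.1, 38.4 and 35.1 CPM and 445, 596, 329 and 268 CPM, a change of 3.52 ± 0.24 (adjusted p = 3.2e-08). For all 3 the groups were far apart. In solvent the mean of Tmem163 was 0.691 CPM in wild-type libraries and 88.1 CPM in heterozygous ones, the changes of Hipk1 and Mal2 were 2.57 and 3.84, and the interaction was not called (lowest adjusted p = 0.641).

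Fam219b rose from 72.0 ± 2.16 to 332 ± 72.0 CPM, a change of 2.21 ± 0.13, and Vav3, an exchange factor of small GTPases, from 14.2 ± 1.48 to 55.2 ± 4.92 CPM, a change of 1.96 ± 0.17. Arhgef11, another such exchange factor, rose by 1.33 on the log2 scale, Ing5, a reader of histone methylation, by 1.16, and Cxcr4, the CXCL12 receptor, by 1.07 (highest adjusted p of these 5 genes = 0.000191). Tsn, the nucleic acid binding protein translin, and Man1a2, a mannosidase of N-glycan processing, were higher by 0.58 and 0.56 relative to the bulk of transcripts and at -0.15 and -0.18 with spike-in scaling. All 7 were called in solvent too. Hist1h2al, annotated as a processed pseudogene of a histone H2A gene, had no count in any wild-type FK228 library and 1.21, 0.827, 0.946 and 1.02 CPM in the heterozygous ones, at least 5.42-fold higher than 3 counts per wild-type library would allow.

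Pigt, a subunit of the transamidase that attaches GPI anchors, had the smallest adjusted p of the genes called higher with FK228 only. It was at 98.4, 89.9, 92.8 and 76.1 CPM in wild type and 199, 248, 238 and 207 CPM in heterozygous FK228 libraries, a change of 1.32 ± 0.13 (adjusted p = 6.61e-06). In solvent the libraries held 105, 104, 103 and 88.6 and 92.2, 148, 157 and 135 CPM, a change of 0.41 ± 0.13 (adjusted p = 0.146). Its interaction of 0.91 ± 0.18 had an unadjusted p of 8.81e-05 and did not pass the test (adjusted p = 0.151).

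Rps3a3, Tpm3-rs7 and Rps3a2, copies of abundant ribosomal protein and tropomyosin genes, rose by 6.82, 3.61 and 1.63 (highest adjusted p = 1.43e-06). Rps3a1, the parent gene, was called lower, at -0.33 ± 0.07 (adjusted p = 0.0132, lost without wild-type library 1) and -0.55 ± 0.07 in solvent (adjusted p = 8.52e-05), and was named after its values were seen. Reads of such near-identical copies may be split between them, which makes each count uncertain. The Rps3a genes together held 567 ± 22.5 CPM (SD, n = 4) in heterozygous FK228 libraries, against 556 ± 29.9 CPM in wild type. Rps3a3 alone was at 109.9, 112, 118 and 107 CPM against 1.08, 0.725, 0.906 and 1.19 CPM, while the sum with FK228 overlapped between genotypes. In solvent the sum was 477 ± 21.9 CPM in heterozygous libraries and 539 ± 47.4 CPM in wild type. Of the 207 higher genes 44 were annotated pseudogenes (21.3%), of the 159 lower genes 0, and of all genes tested 795 (4.64%). Among higher genes called in both treatments the share was 29.5%, and among those called higher with FK228 only 12.7%.

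The called genes were unevenly spread over the chromosomes. On chromosome 3, 52 of 930 genes tested were called with FK228 (5.59%, 22 higher and 30 lower), on chromosome 1, 38 of 1106 (3.44%), on chromosome 6, 30 of 876 (3.42%) and on chromosome 9, 32 of 949 (3.37%), against 2.14% of all genes. Neighbouring windows of 10 Mb from 90 to 110 Mb on chromosome 3 held 14 and 13 called genes, among them Hipk1, Man1a2, Vav3 and Notch2. On chromosome 1 the window from 120 to 130 Mb held 4 called genes of 35 tested (11.4%), Mgat5, Tmem163, Mcm6 and Cxcr4. Mgat5, which fell, and Tmem163, which rose, lie side by side there. The next window, from 130 to 140 Mb, held 9 of 112 (8.04%), among them Pik3c2b and Btg2. Of genes called in both treatments 54.1% had another called gene within 1 Mb, of those called with FK228 only 42.9%, and of all genes tested 32.6%. Within 5 Mb of Rest itself, which lies on chromosome 5, 46 genes were tested and none was called with FK228 or in solvent. Whether the mice of both genotypes shared their background at these places is not stated in the labels and was not tested.

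**Figure D4:**
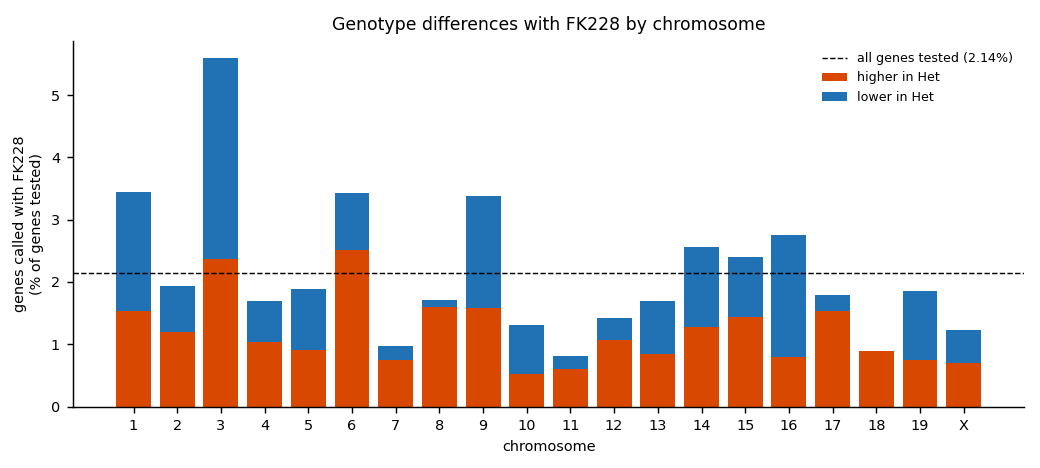
Percent of genes tested on each chromosome that were called with FK228, higher (orange) or lower (blue) in heterozygous (Het) cultures, with a dashed line at 2.14% for all genes. Chromosome 3 had the highest share, 5.59%.

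Among markers of other cells, 1 of 13 macrophage genes was called lower, against 0.928% of all genes. C1qc, a subunit of complement C1q, was at 3.18, 3.75, 2.84 and 3.85 CPM in wild type and 1.21, 2.00, 2.03 and 0.944 CPM in heterozygous FK228 libraries, a change of -1.12 ± 0.26 (adjusted p = 0.0265), lost without any one of heterozygous libraries 2 and 5 and wild-type libraries 1, 2 and 7 (adjusted p up to 0.0941). All 13 macrophage markers were below 0, with a median of -0.61 (solvent -0.37). The sum over the 14 listed ran from 38.7 to 55.7 CPM in heterozygous FK228 libraries, against 58.7 to 72.6 CPM in wild type, so the groups did not overlap, and the part of these cells in other differences was not tested.

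Pigment cell and stria vascularis genes leaned the other way without a call. Of 12 such markers 11 were above 0, with a median of 0.81 (-0.01 in solvent, and 0.05 with FK228 under spike-in scaling). DESeq2 called 2 of the 12 higher. Wild-type library 7 was the lowest wild-type library for 8 of the 12, with Dct at 4.81 CPM against 45.6 to 64.9 CPM in the other 3, and without it the median was 0.63, 11 were above 0 and none was called. Tyr, tyrosinase, was at 6.81, 7.31, 8.33 and 0.566 CPM in wild type and 14.7, 22.4, 19.2 and 13.9 CPM in heterozygous FK228 libraries, a change of 1.61 ± 0.45 (adjusted p = 0.0718). Kcne1, a potassium channel subunit of marginal cells, was at 1.49 ± 0.39 (adjusted p = 0.0538), Pmel, a melanosome matrix protein, at 1.06 ± 0.31 (adjusted p = 0.0851) and Dct, an enzyme of melanin synthesis, at 1.33 ± 0.46 (adjusted p = 0.182). The sum over the 13 listed was 615 to 709 CPM in heterozygous FK228 libraries, against 323 to 511 CPM in wild type.

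Of 30 supporting cell markers Npy and Fabp7 were called lower, against 0.928% of all genes, and the median was -0.11. Their changes were -1.10 ± 0.26 (adjusted p = 0.03) and -0.88 ± 0.22 (adjusted p = 0.0386). Fabp7 also marks glia, and no other of 13 Schwann and glial markers was called. The call of Npy was lost without any one library except heterozygous library 4, and that of Fabp7 without any one except heterozygous library 4 and wild-type library 4 (adjusted p up to 0.105 and 0.136). None of 15 mesenchyme, 11 cartilage and bone and 12 endothelial markers was called (medians -0.05, -0.11 and 0.21).

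Of 24 Notch pathway genes, which govern the choice between hair cell and supporting cell, 3 fell with FK228 and none in solvent, against 0.928% and 0.823% of all genes. Notch2, a receptor, was at -0.27 ± 0.07 (adjusted p = 0.0386), and the coactivators Maml2 and Maml3 at -0.31 ± 0.08 (adjusted p = 0.0389) and -0.59 ± 0.14 (adjusted p = 0.0295). The list median was -0.08, and 0 to 2 of the 24 remained called when any 1 of the 8 FK228 libraries was left out. The call of Notch2 was lost without any one library except heterozygous library 5, that of Maml2 without any one except heterozygous library 4 and wild-type library 1, and that of Maml3 without any one except heterozygous library 3 and wild-type library 1 (adjusted p up to 0.144). Notch2 lies in the stretch of chromosome 3 named above. None of the 3 was called by the interaction (lowest adjusted p = 0.516).

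Glycolysis enzymes leaned higher in heterozygous cultures with FK228, relative to the bulk of transcripts. Of 19 enzymes 18 were above 0 with FK228, with a median of 0.32, or -0.44 with spike-in scaling. Of the 19, 2 were called higher, against 1.21% of all genes, and none lower. In solvent all 19 were below 0 and none was called (median -0.19). Gapdh was at 491, 545, 490.1 and 421 CPM in wild type and 639.9, 598, 784 and 888 CPM in heterozygous FK228 libraries, with no overlap, a change of 0.58 ± 0.13 (adjusted p = 0.0181; -0.17 with spike-in scaling). Gpi1, the glucose-6-phosphate isomerase, was at 0.66 ± 0.16 (adjusted p = 0.0383; -0.11 with spike-in scaling), and its groups overlapped. Between 0 (without heterozygous library 4 or 5 or wild-type library 1, 4 or 7) and 8 (without wild-type library 2) were called when 1 FK228 library was left out. No glycolysis gene named here was called by the interaction (Gapdh 0.84 ± 0.18, unadjusted p = 0.000154, adjusted p = 0.19). The call of Gapdh was lost without heterozygous library 4 or 5 or wild-type library 1, 4 or 7, and that of Gpi1 without these or heterozygous library 2 (adjusted p up to 0.139).

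Of 20 interferon response and antigen presentation genes all were above 0 with FK228 (median 0.28, or -0.46 with spike-in scaling). Of all 17125 genes tested 8713 were below 0. In the list 1 gene was called higher, against 1.21% of all genes. H2-D1, a class I histocompatibility antigen, was at 105, 83.5, 96.6 and 101 CPM in wild type and 242, 174, 141 and 146 CPM in heterozygous FK228 libraries, a change of 0.87 ± 0.15 (adjusted p = 0.00463), with 0.66 ± 0.16 in solvent (adjusted p = 0.0316). Class I antigens form a family of similar genes, so its count is uncertain.

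Of 24 genes of protein folding in the endoplasmic reticulum 2 were called higher, against 1.21% of all genes. Edem1, which routes misfolded glycoproteins to degradation, was at 27.5, 22.5, 33.5 and 29.6 CPM in wild type and 70.1, 92.1, 90.8 and 27.4 CPM in heterozygous FK228 libraries, with heterozygous library 5 at the wild-type level, and changed by 1.31 ± 0.29 (adjusted p = 0.0199; 0.000302 without that library). It was also called in solvent (1.56 ± 0.29), while the list median was -0.08. Calr, the chaperone calreticulin, was higher by 0.31 relative to the bulk (adjusted p = 0.035) and at -0.42 with spike-in scaling. Of all genes 0.928% were called lower and 1.21% higher. Among 28 cell cycle genes Mcm6, of the replicative helicase, was called lower at -0.47 ± 0.11 (adjusted p = 0.0262) and Ccnd2, cyclin D2, higher at 0.39 ± 0.09 (adjusted p = 0.0316; -0.34 with spike-in scaling). These calls rested on most of the libraries. Calr lost its call without heterozygous library 2, 3 or 4 or wild-type library 2, 4 or 7, and Edem1 without heterozygous library 3 or 4 or wild-type library 1, 2 or 7. Mcm6 lost it without heterozygous library 2, 4 or 5 or wild-type library 1 or 2, and Ccnd2 without heterozygous library 2 or 5 or wild-type library 1, 4 or 7 (adjusted p up to 0.119).

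Btg2 was the one gene called among 18 p53 response genes, and it was lower, against 0.928% of all genes called lower. No gene was called with FK228 among 18 genes of the deacetylase inhibitor response, 14 immediate early genes, 21 neural splicing factors, 33 voltage-gated channel genes, 27 transmitter receptor genes and 22 collagens. In the receptor list Grin2b, an NMDA receptor subunit that was called higher in solvent (3.76 ± 0.47, adjusted p = 0.00011), was at 1.66 ± 0.47 with FK228 (adjusted p = 0.084). It was at 0.908, 2.24, 2.17 and 2.94 CPM in wild-type and 6.43, 10.8, 7.97 and 0.708 CPM in heterozygous FK228 libraries. Heterozygous library 5 was thus at the wild-type level. With 1 FK228 library left out, the adjusted p ranged from 0.000892 to 0.261. Its interaction was not called (adjusted p = 0.575).

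**Figure D5:**
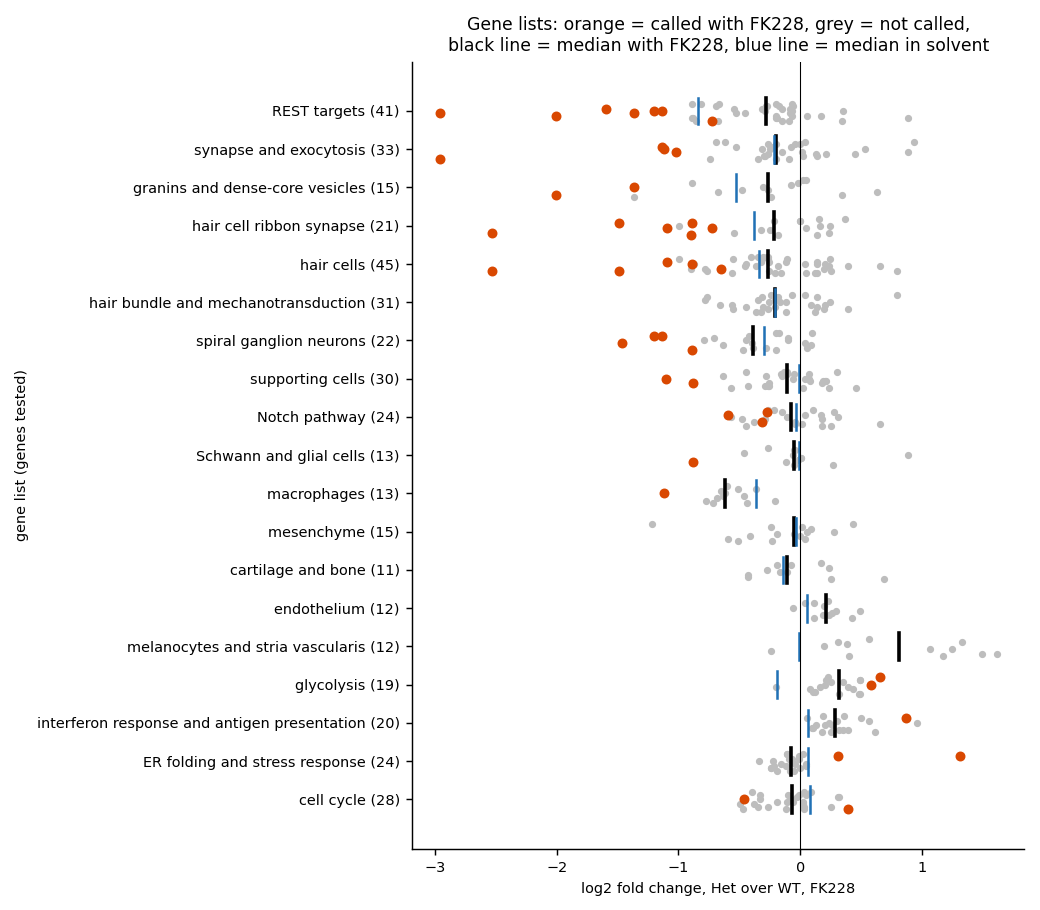
Log2 fold change of heterozygous over wild type with FK228 for the genes of 19 lists, with called genes in orange, the median with FK228 as a black line and the median in solvent as a blue line. Called genes of the REST target, synapse, hair cell and neuron lists all lie below 0.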

How the data were processed

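RNA was sequenced from 16 libraries of pooled mouse organ of Corti cultures. The authors deposited raw counts per gene, of which the unstranded column and mouse genes were used here. The submitters' processing notes name STAR 2.5.2a and GRCm38.p4. Their annotation release is not given in the sources used here. They also deposited a normalized signal table of 21220 genes, whose values times 1 size factor per library (0.801 to 1.41) gave whole reads for 100% of values within 0.01 reads. It served only as an alternative input. Gene names came from that table and positions from GENCODE M21, which held 99.3% of gene IDs. Reads in no gene (10.4% to 20.8%) and rows that name no mouse gene stayed out of library sizes, apart from the ERCC rows used for spike-in scaling.

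Genes were filtered with edgeR's filterByExpr (minimum count 10, total 15), scaled by TMM and fitted over all 16 libraries by group with edgeR 4.0.16 (R 4.3.3) and its quasi-likelihood test. All groups share 1 estimate of spread. Contrasts were heterozygous minus wild type with FK228, the same in solvent, and their difference, with Benjamini-Hochberg adjustment over 17125 genes and a threshold of 0.05. Errors of log2 fold changes are SE, and CPM values use TMM library sizes, except sums over a list, which use plain totals. No pair of libraries within a group had the same values, and pairs across groups were not compared. Library measures were compared by an exact two-sided permutation test. On simulated data of the FK228 comparison (16879 genes), edgeR recovered 40% of genes changed 1.5-fold and 82% of those changed 2-fold, all with the right sign. The simulated spread followed a set formula of the mean count and was not estimated from these libraries. These rates may therefore not hold for the real data.

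The members and the 28 gene lists (645 of 647 symbols matched) were chosen with earlier results of these data known, so a list's count is no independent evidence of its direction. Named were Rest, up to 15 higher and 15 lower genes with the smallest adjusted p whose groups did not overlap, up to 4 genes of each list with the smallest p, and up to 6 per direction of those kept, gained or lost between treatments. Atp2a3, Pvalb, Rbfox3, Cacna1d, Ctbp2, Slc17a8, the REST targets called in solvent only and the genes outside the lists were named after their values were seen. Of the red blood cell list 1 of 8 genes was tested, and it was not called. Alternatives were DESeq2 1.42.0, limma 3.58.1 voom, RLE and spike-in scaling, 2 other filters, covariates, a replicate block, the 8 FK228 libraries alone, and each library left out. The recovered counts, the omission of solvent libraries and the omission of the 2 libraries with the fewest reads in no gene by share were added after seeing the data.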

Additional observations from a re-analysis of the deposited data

Results flagged for a closer look

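For 4 genes the genotype effect with FK228 differed from that in solvent by the interaction test. The log2 difference between both effects was 2.12 for Snap25, 3.13 for Atp2a3, 2.65 for Sncb and -0.80 for Cplx2. For the first 3 the gap between genotypes was wider in solvent, and for Cplx2 it was wider with FK228.

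Among groups of 4 FK228 libraries, 200 were checked for 1 library that stood apart, by the share of the group's range taken by the gap to its nearest neighbour, and 7 were past the 95% critical value of Dixon's test. Chance flags about 1 in 20 groups. In wild type, Resp18 was at 2.48 CPM in library 4 against 3.74 to 3.87 in the others (share 0.905), and Man1a2 at 41.9 CPM in library 1 against 47.7 to 48.5 (0.876). Hgf was at 2.48 CPM in wild-type library 2 against 1.07 to 1.27 (0.863), and Rspo3 at 9.96 CPM in wild-type library 4 against 6.29 to 6.68 (0.893). In heterozygous cultures, Cplx2 was at 50.2 CPM in library 3 against 45.2 to 45.6 (0.915), and Nefl at 101 CPM in library 4 against 54.2 to 59.1 (0.897). Reads in no gene took 19.7% of heterozygous library 5 against 17.5% to 17.8% of the others (0.861).

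Outside the mouse genes, Cre-ERT2 had 72 reads over the 8 heterozygous libraries, 33 of them with FK228, and 0 in the 8 wild-type libraries, each of which allows up to 3.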

How the results depend on the processing

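Spike-in scaling changed most. It gave 96 genes higher and 12761 of 17125 lower with FK228, 61 higher and 187 lower in both treatments and 4069 with an interaction. Called lower were 34 of 41 REST targets, 26 of 33 synapse and 13 of 21 ribbon genes. So were 33 of 45 hair cell and 21 of 22 spiral ganglion genes. As most genes were called lower under this scaling, these counts say nothing particular of the lists. Log2 changes turned to -0.15 for Tsn, -0.18 for Man1a2, -0.17 for Gapdh, -0.34 for Ccnd2, -0.11 for Gpi1, -0.42 for Calr and -0.60 for Rest. DESeq2 called 330 higher, 308 lower, 91 lower in both treatments and 16 with an interaction, all 366 genes included, and gave no adjusted p for the interaction of Snap25, Sncb and Atp2a3. The share of reads in no gene as covariate gave 311 higher, 281 lower, 102 lower in both and 8 with an interaction. With the Y-linked level as covariate 349 genes were called, 324 of them among the 366. Limma voom gave 259 lower, 60 higher in both and 2 with an interaction, no filter gave 10 and omission of the 2 libraries with the fewest reads in no gene by share gave 2. With an unadjusted p in solvent 106 genes were lower in both. Leaving out each library in turn gave 108 to 184 higher, 80 to 168 lower, 71 to 114 higher and 37 to 55 lower in both, and 2 to 6 with an interaction. REST targets stayed at 7 lower, hair cell markers at 5 and spiral ganglion markers at 4, while ribbon genes ranged from 5 to 6 and synapse genes from 3 to 4. The cause of these changes was not tested.

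Replicate numbers 2 and 4 occur in both FK228 groups, but deviations of same-numbered libraries correlated at 0.0319 and 0.0149, so the numbers were not taken to pair them. Numbers also recur between solvent and FK228 libraries of a genotype, and whether these are paired was not checked. The fit with the number as a block called 71 higher, 36 lower, 41 higher and 21 lower in both, 0 with an interaction (adjusted p = 0.0568 for Snap25, Atp2a3, Cplx2 and Sncb), and 2 REST targets, 2 synapse, 1 ribbon, 1 hair cell and 0 spiral ganglion genes lower. Of the 366 genes it called 101. In the FK228 libraries 1 CPM is about 12 to 18 reads, so genes under 1 CPM rest on fewer reads, which limits their folds.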

Other observations

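Genes outside the lists, chosen after their values were seen, included several of neurons and signalling. Cacng2, the AMPA receptor regulator stargazin, had no read in any of the 8 heterozygous libraries. Wild-type libraries held 13 to 47 reads with FK228 and 71 to 99 in solvent. If up to 3 reads per heterozygous library are allowed, Cacng2 was at least 7.26-fold lower than in wild type with FK228. In solvent it was at least 21.2-fold lower. For this gene the Rest allele and any other inherited difference between the mice of both groups cannot be told apart. Svop, a synaptic vesicle protein, changed by -2.88 ± 0.55 with FK228 (adjusted p = 0.00791), Fgf12, a modulator of sodium channels, by -1.88 ± 0.37 (adjusted p = 0.00993), Penk, the enkephalin precursor, by -1.32 ± 0.28 (adjusted p = 0.014) and Pou3f2, a neural transcription factor, by -0.77 ± 0.14 (adjusted p = 0.00438). The call of Penk was lost without heterozygous library 2 or wild-type library 1.

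Slc7a11, the cystine transporter, was higher by 3.23 ± 0.45 (adjusted p = 0.000385), from 0.778 to 7.29 CPM, against 1.16 ± 0.37 in solvent (adjusted p = 0.141). It was at 0.738, 0.846, 0.906 and 0.623 CPM in wild-type FK228 libraries and 7.49, 11.7, 8.38 and 1.57 CPM in heterozygous ones, lowest in library 5. Hgf, hepatocyte growth factor, was higher by 1.35 ± 0.27 (adjusted p = 0.0102) and Rspo3, an enhancer of WNT signalling, by 1.08 ± 0.19 (adjusted p = 0.00338). None of these 3 was called by the interaction.

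A further 4 genes were picked by their values and by the cells they are known from, so they say nothing of those cells as a whole. Mlph, a melanosome transport protein, was higher by 1.33 ± 0.32 (adjusted p = 0.0316) and Trpm1, a melanocyte channel, by 1.80 ± 0.44 (adjusted p = 0.0366). Cd53, a leukocyte tetraspanin, was lower at -1.11 ± 0.23 (adjusted p = 0.0131) and Pf4, a chemokine of platelets and macrophages, at -0.87 ± 0.20 (adjusted p = 0.0244). The calls of Mlph and Pf4 were lost without any one of 5 of the 8 FK228 libraries, and that of Trpm1 without any one of the 8 (adjusted p up to 0.0992). None was called in solvent.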
